A study of Mus musculus with 6 samples.

Results

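The genes described here encode cytokine receptor subunits and the Janus kinases (JAKs), the tyrosine kinases bound to many of those receptors. They were chosen by name from a list of 45 genes, and a probe belonged to the group when its annotated symbol was on that list. Of the 45, 41 had at least 1 probe, among 10698 genes with a single-symbol probe in the value table. Those 41 genes had 76 probes, of which 60 held a value on all 6 arrays, 11 were listed at exactly 0 on some arrays and 5 at exactly 0 on all. An exact 0 was read as not measured, which left 39 genes to be tested. Il9r and Il27ra had probes without a full set of values, and Il1rl1, Il2rg, Il11ra1 and Il20ra had no probe in the annotation used here.

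RAW 264.7 cells (written RAW 264.4 in some labels), a mouse macrophage line that grew from a virus-induced tumour, were treated with lipopolysaccharide (LPS, 100 ng/ml) together with LPS-binding protein (LBP, 100 pM), or were left untreated. Both were cultured for 4 h, and no genetic change or further agent is named in the labels. LPS is a component of the outer membrane of Gram-negative bacteria, and LBP carries it to its receptor on macrophages. Total RNA of treated and untreated cells was hybridised together on 6 arrays in different dyes, in sets numbered 1 to 3, with treated RNA in the red dye Cy5 on 3 arrays and in the green dye Cy3 on 3.

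Every value below is a log2 ratio of treated over untreated RNA, so 1 stands for a doubling. The mean ± SD is over 3 sets, each averaged over its 2 dye orientations once those with treated RNA in Cy3 had their sign turned. The direction rests on the labels, which call Cy5 the test channel, and a table divided the other way would turn every sign. A gene was called when limma's Benjamini-Hochberg adjusted p over all 11364 tested features was below 0.05. Nothing in the labels names separate cultures behind the sets, so these p-values measure only the spread between 3 set means, which may be technical. Opposite deviations of the 2 arrays of a set cancel in its mean, which can leave the SD small. Il18rap, for example, had an SD of 0.016 with arrays from 0.0056 to 0.53. The ratios give no level: how strongly a receptor was expressed, and in which cells of the culture, cannot be read from them. In bulk RNA, fewer cells that express a gene and less RNA per cell cannot be told apart.

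Cytokine receptors of the classical kind have no enzyme of their own. When a cytokine joins their chains, the JAKs bound to the chains phosphorylate them and then the STAT transcription factors, which carry the signal to the nucleus. Usually one chain binds a particular cytokine and a partner chain is shared between several, so the set of chains on a cell fixes which cytokines it can answer. Receptors of the interleukin-1 (IL-1) and IL-17 families work without JAKs, through adaptor proteins such as MyD88. Macrophages use these receptors to respond to the cytokines that they and lymphocytes release.

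Of the 39 genes tested, 12 rose, 5 fell and 22 were not called. The rises made up 30.8% of them, against 14.0% of all features called higher, and the falls 12.8%, against 15.0% of all features called lower. Of the 39, 20 were means of several probes, against 1866 of all 11364 features. The list was also made with earlier results of these data known. What this does to the shares was not tested. Calls in either direction came to 17 of 39 genes, against 29.0% of all features. The median change over the 39 genes was 0.090, and that of all features 0.00079. All 12 rises lay above 0 on all 6 arrays, whereas only Ifngr1 and Il17ra among the falls lay below 0 on all 6. Such called changes with 1 sign on all 6 arrays thus numbered 14 of 39, against 22.2% of all features. Rises reached 3.28-fold, and the largest fall was 1.29-fold. With the set number left out and 6 arrays fitted without a replicate block, 12 genes rose and 2 fell. With it as a fixed replicate block 9 rose and 1 fell, so the count of falls depended on how arrays were combined. Leaving out any 1 set changed which genes were called. Without set 1, 11 rose and 2 fell, and without set 3, 12 rose and 3 fell. Without set 2, 12 rose and 5 fell, of which Ifngr1 and Il6st were the falls also called over all sets. Fits with a set left out rest on 2 sets, and limma's adjusted p can shrink sharply in them. For Il13ra2 it was 2.47e-34 without set 2, against 9.01e-07 over 3 sets. A pass in such a fit is thus no firmer than a call over 3 sets.

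**Figure D1:**
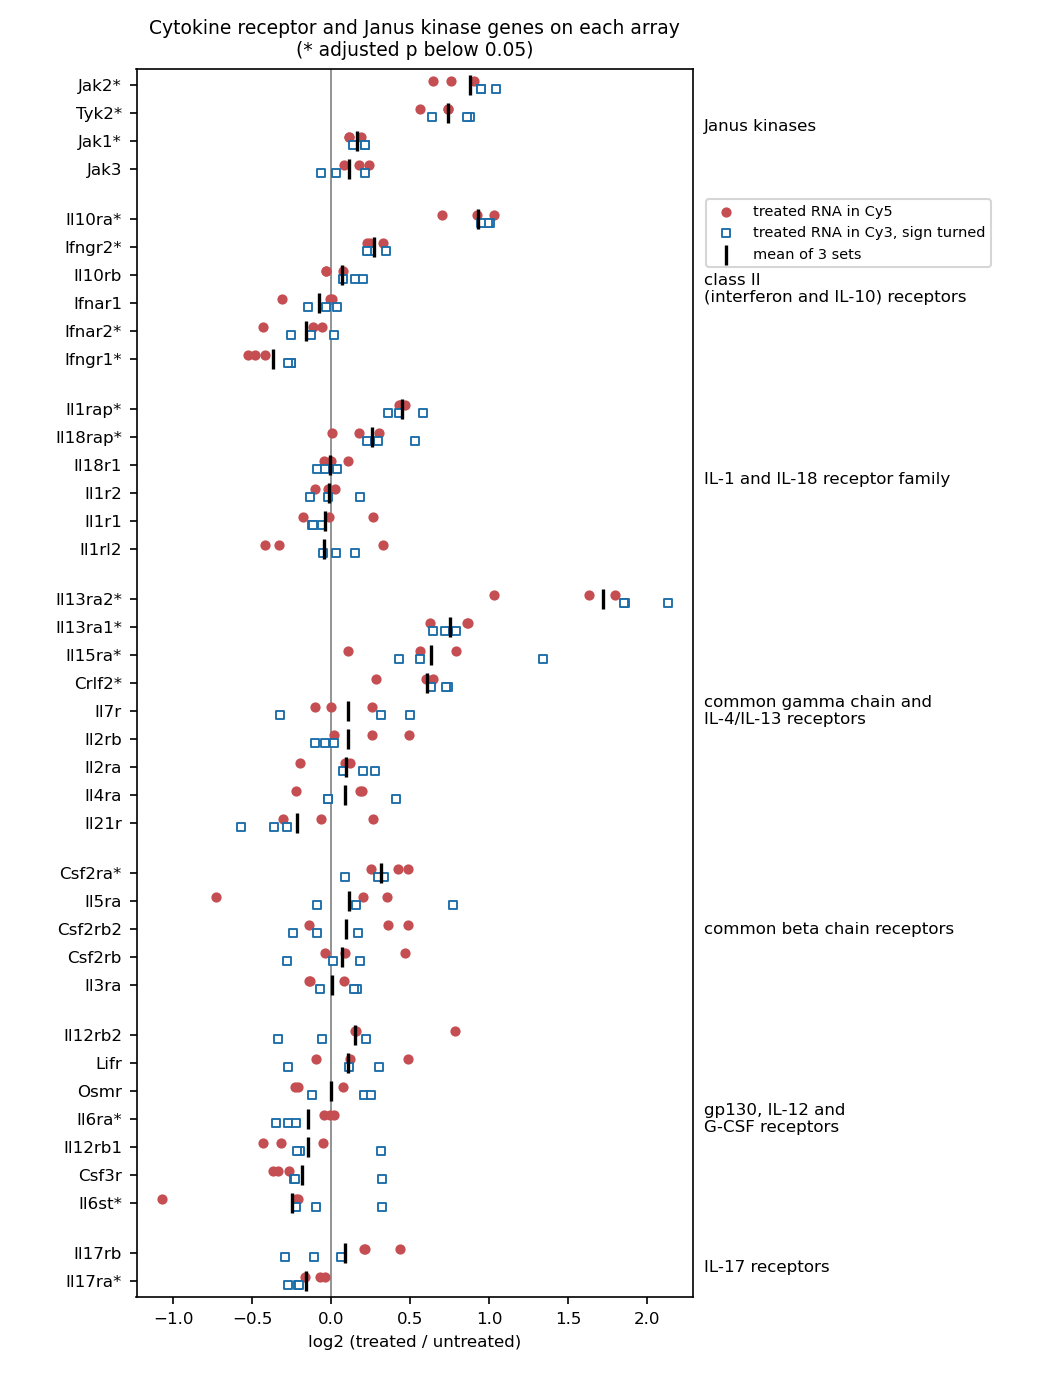
Log2 ratio of treated over untreated RNA (horizontal axis) of each of the 39 tested genes on each array, grouped by receptor class. Filled circles are arrays with treated RNA in Cy5, open squares those with treated RNA in Cy3 (sign turned), black bars the means of 3 sets, and asterisks an adjusted p below 0.05. Il13ra2 stands farthest to the right at 1.72, and Ifngr1 has the lowest mean at -0.37.

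**Figure D2:**
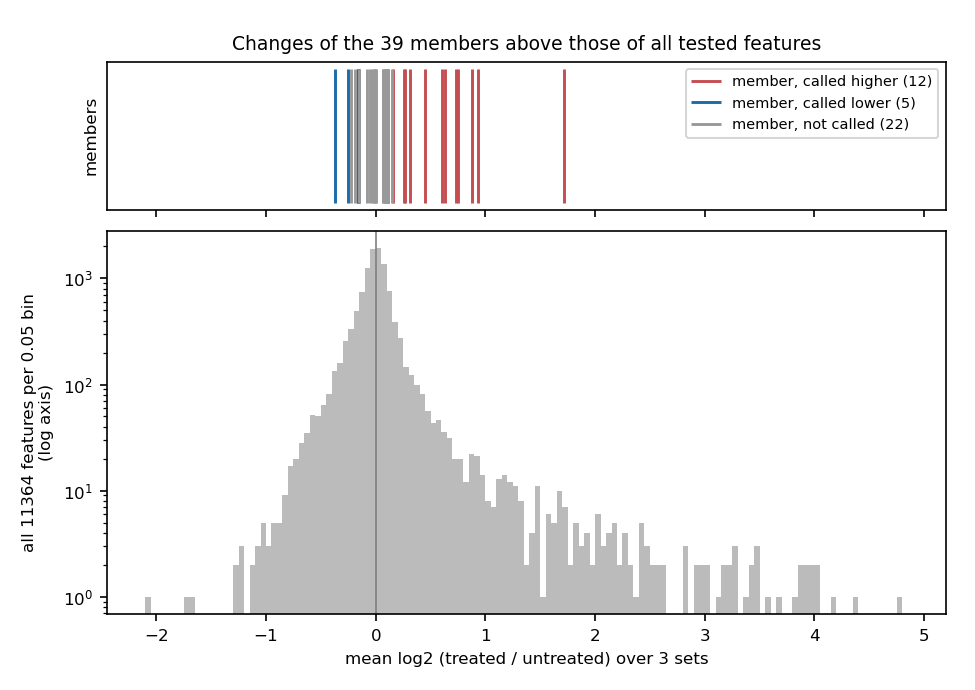
Mean log2 ratios over 3 sets of the 39 tested genes (upper panel, one line per gene, coloured by call) above the histogram of all 11364 features on the same horizontal axis (lower panel, features per bin of 0.05, log axis). The 12 called rises spread to 1.72, while no gene of the group lies below -0.37.

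Receptors for IL-4, IL-13 and the cytokines that signal through the common gamma chain, grouped with Crlf2, held the largest rise. Of the 9 tested genes 4 were called higher and none lower, against 14.0% and 15.0% of all features. Among those rises only Il15ra belongs to a receptor with the common gamma chain. Il2ra, Il2rb, Il4ra, Il7r and Il21r were not called. Il13ra2 encodes a chain that binds IL-13 tightly but has only a short cytoplasmic tail and is known as a decoy receptor. Il13ra2 was at 1.80, 1.03 and 1.63 on the arrays of sets 1 to 3 with treated RNA in Cy5 and at 1.86, 2.13 and 1.85 on those with it in Cy3. Every array lay above 1, the lowest being the Cy5 array of set 2. The mean of 1.72 ± 0.13 corresponds to 3.28-fold (adjusted p = 9.01e-07), and its pair of probes gave 1.74 and 1.69. Il13ra1, the chain that joins IL-4Rα to form the signalling receptor for IL-13, was at 0.87, 0.86 and 0.63 with treated RNA in Cy5 and at 0.79, 0.72 and 0.64 with it in Cy3. Its arrays were close together, and the mean was 0.75 ± 0.10 (adjusted p = 4.13e-05). Il4ra itself, which binds IL-4, was at 0.086 ± 0.21 with a 95% interval of -0.091 to 0.26 and was not called (adjusted p = 0.465), with 3 arrays above 0 and 3 below.

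Il15ra, the chain that binds IL-15 and presents it to neighbouring cells, was at 0.79, 0.11 and 0.56 with treated RNA in Cy5 and at 0.43, 1.34 and 0.56 with it in Cy3. The arrays of set 2 were the lowest and the highest of the 6, and their average lay near the other sets. Its mean was 0.63 ± 0.083 (adjusted p = 7.01e-05), and the call ended on the Cy5 arrays alone (0.49, adjusted p = 0.0824) and with a fixed replicate block (adjusted p = 0.0622). Crlf2 encodes the chain that binds thymic stromal lymphopoietin (TSLP) and pairs with the IL-7 receptor chain. It was at 0.60, 0.28 and 0.65 with treated RNA in Cy5 and at 0.63, 0.74 and 0.72 with it in Cy3, so that only the Cy5 array of set 2 stood below the others. The mean was 0.60 ± 0.090 (adjusted p = 9.73e-05), from probes at 0.54 and 0.66, while a further Crlf2 probe had a value on 1 array only (1.93) and was left out. Il7r, Crlf2's partner chain, was at 0.11 ± 0.12 (95% interval -0.025 to 0.24) and not called.

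The chains of the IL-2 receptor showed no called change. Il2ra, which gives the receptor its high affinity, was at 0.092 ± 0.14 (95% interval -0.045 to 0.23), and Il2rb, shared by IL-2 and IL-15, at 0.11 ± 0.15 (95% interval -0.038 to 0.25). Il21r, the IL-21 receptor gene, averaged -0.22 ± 0.21, below 0 on 5 arrays, and was not called (adjusted p = 0.0715). Without set 2, in a fit of only 2 sets, it was at -0.33 and passed (adjusted p = 0.000182). It also passed on the arrays with treated RNA in Cy3 alone, at -0.41 (adjusted p = 0.0234). Il9r, the IL-9 receptor gene, was measured in 2 sets by 1 probe and averaged 0.11 there (adjusted p = 0.218 when features with values in 2 or 3 sets were fitted, 26.9% of which were called). Its other probe was measured only in set 1, where the treated-over-untreated value was -3.19 with treated RNA in Cy5 and 2.86 with it in Cy3. Both arrays thus read the Cy5 channel far below the Cy3 channel, whichever RNA it held.

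The bases before the annotated starts are shown for the genes that rose most, picked by their rise alone. Whether those genes share regulation was not tested. Of the 5 largest rises, Il13ra2, Jak2, Il13ra1 and Tyk2 had an entry in the RefSeq promoter table of build GRCm38.p6, and Il10ra had none. The 250 bases before each start were searched on both strands for 3 motifs: TTCNNNGAA (GAS, the element of STAT factors, with N for any base), GAAA and GAAA with 2 bases of any kind between (ISRE core, the element of interferon-stimulated genes), and GGG and CC with 5 bases of any kind between (the κB element of NF-κB). Matches, which may overlap each other or lie on opposite strands of 1 stretch, are in capitals. All sequences are written 5′ to 3′ on the strand of the gene. The windows are chrX:147429193-147429442, minus strand for Il13ra2, chr19:29251553-29251802, plus strand for Jak2, chrX:36111858-36112107, plus strand for Il13ra1 and chr9:21131276-21131525, minus strand for Tyk2.
Il13ra2: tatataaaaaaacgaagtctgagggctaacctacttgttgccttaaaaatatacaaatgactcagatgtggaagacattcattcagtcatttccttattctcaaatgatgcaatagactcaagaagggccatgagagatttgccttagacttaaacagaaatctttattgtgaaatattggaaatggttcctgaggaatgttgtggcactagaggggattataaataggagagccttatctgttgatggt
Jak2: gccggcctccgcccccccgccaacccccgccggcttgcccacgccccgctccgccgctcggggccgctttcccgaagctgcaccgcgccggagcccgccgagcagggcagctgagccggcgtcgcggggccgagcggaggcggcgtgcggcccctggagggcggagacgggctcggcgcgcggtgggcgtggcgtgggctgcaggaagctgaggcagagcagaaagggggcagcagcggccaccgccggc
Il13ra1: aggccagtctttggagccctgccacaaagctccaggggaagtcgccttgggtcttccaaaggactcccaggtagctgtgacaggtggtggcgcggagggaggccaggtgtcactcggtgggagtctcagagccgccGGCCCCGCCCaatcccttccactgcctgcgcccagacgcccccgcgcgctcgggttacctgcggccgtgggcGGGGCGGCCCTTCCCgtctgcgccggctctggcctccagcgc
Tyk2: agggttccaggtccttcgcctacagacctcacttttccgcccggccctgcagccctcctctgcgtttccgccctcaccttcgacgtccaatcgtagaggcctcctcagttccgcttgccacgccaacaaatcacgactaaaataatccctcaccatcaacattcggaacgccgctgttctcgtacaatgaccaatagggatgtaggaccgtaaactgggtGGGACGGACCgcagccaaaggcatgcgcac

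None of the 3 motifs matched in the Il13ra2 and Jak2 windows. Il13ra1 held 3 κB matches, of which GGGGCGGCCC and GGCCCTTCCC overlap, and Tyk2 held 1, GGGACGGACC. Over the 45 windows of the 38 listed genes that had an entry, 19 (42.2%) held the κB letters, against 45.8% of all 32851 windows of the table. GAS letters stood in 6 of the 45 (13.3%), against 7.02% of all windows. ISRE core letters stood in 0 of the 45, and in 2.98% of all windows. By call, κB letters were found for 8 of the 11 genes with an entry that rose, 2 of the 4 that fell, 8 of the 18 not called and 0 of the 5 not tested. GAS letters were found for 0, 1, 5 and 0 of them in the same order. These matches describe the letters of a short window and show no binding.

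Class II receptors, those of the interferons and the IL-10 family, went in both directions. Of 6 tested genes 2 were called higher and 2 lower, against 14.0% and 15.0% of all features. Il10ra encodes the chain that binds IL-10, the cytokine that damps macrophage activation. It was at 0.92, 0.70 and 1.03 with treated RNA in Cy5 and at 1.00, 0.99 and 0.95 with it in Cy3. All 6 arrays lay above 0.69 and the mean was 0.93 ± 0.075, or 1.91-fold (adjusted p = 8.71e-06). Its probes differed in size, at 1.30 and 0.56, and each was called on its own (adjusted p = 1.93e-06 and 1.79e-04 in the fit of single probes). Il10rb, the second chain of that receptor, shared with other members of the IL-10 family, was at 0.070 ± 0.046 (95% interval -0.032 to 0.17) and was not called.

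The chains of the receptor for interferon-γ, the chief macrophage-activating cytokine of lymphocytes, moved in opposite directions. Ifngr1, the chain that binds the ligand, was at -0.48, -0.52 and -0.42 with treated RNA in Cy5 and at -0.26, -0.26 and -0.27 with it in Cy3. All arrays lay below 0, those with treated RNA in Cy5 further than those with it in Cy3. The mean was -0.37 ± 0.022, a 1.29-fold fall (adjusted p = 0.000499). Of its probes, at -0.36 and -0.38, the first gave like values in both orientations, and the second lay between -0.66 and -0.56 with treated RNA in Cy5 but between -0.18 and -0.086 with it in Cy3. Ifngr2, the chain that brings in Jak2, was at 0.33, 0.24 and 0.23 with treated RNA in Cy5 and at 0.34, 0.25 and 0.22 with it in Cy3. Both orientations gave nearly the same value in every set, with a mean of 0.27 ± 0.058 (adjusted p = 0.00344). That call was missed narrowly on the Cy5 arrays alone (0.27, adjusted p = 0.0504).

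As Ifngr1 and Ifngr2 went opposite ways, their windows of 250 bases before the start are set side by side, from the same table and with the same 3 motifs in capitals. The windows are chr10:19591699-19591948, plus strand for Ifngr1 and chr16:91546809-91547058, plus strand for Ifngr2.
Ifngr1: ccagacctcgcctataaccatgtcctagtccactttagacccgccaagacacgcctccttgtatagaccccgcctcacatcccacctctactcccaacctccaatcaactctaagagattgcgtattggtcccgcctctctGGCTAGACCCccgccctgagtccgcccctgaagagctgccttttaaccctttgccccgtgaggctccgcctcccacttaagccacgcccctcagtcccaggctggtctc
Ifngr2: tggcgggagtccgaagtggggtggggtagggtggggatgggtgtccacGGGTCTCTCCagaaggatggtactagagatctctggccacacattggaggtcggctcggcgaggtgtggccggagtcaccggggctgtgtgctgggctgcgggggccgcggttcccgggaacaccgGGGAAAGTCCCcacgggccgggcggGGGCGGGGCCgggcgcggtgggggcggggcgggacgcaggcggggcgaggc

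Ifngr1 held 1 κB match, GGCTAGACCC. Ifngr2 held 4, of which GGGAAAGTCC and its overlapping neighbour GGAAAGTCCC form 1 stretch on both strands. Neither window held GAS or ISRE core letters.

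Of the chains of the receptor for type I interferon, the family of interferon-β, Ifnar1 was at 0.0017, -0.31 and -0.0078 with treated RNA in Cy5 and at -0.15, 0.038 and -0.033 with it in Cy3. Its values lay on both sides of 0, with a mean of -0.077 ± 0.058 and a 95% interval of -0.18 to 0.028, and it was not called (adjusted p = 0.261). Ifnar2 was at -0.12, -0.43 and -0.061 with treated RNA in Cy5 and at -0.25, 0.019 and -0.13 with it in Cy3. It was called lower at -0.16 ± 0.059 (adjusted p = 0.031) with 5 arrays below 0. That call ended without set 1 (adjusted p = 0.134), without set 2 (adjusted p = 0.149) and on either dye orientation alone (adjusted p = 0.196 and 0.295). It also ended with a fixed replicate block (adjusted p = 0.262) and with no replicate block (adjusted p = 0.127). In the GRCm38.p6 gene table, Ifnar2, Il10rb, Ifnar1 and Ifngr2 follow each other with no coding gene between them. The outer genes of that row were called in opposite directions, Ifnar2 lower and Ifngr2 higher, and the inner pair was not called.

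In the IL-1 receptor family the accessory chains rose and the ligand-binding chains were not called. Il1rap encodes the accessory protein that the receptors for IL-1, IL-33 and IL-36 all need in order to signal. It was at 0.46, 0.43 and 0.44 with treated RNA in Cy5 and at 0.43, 0.58 and 0.36 with it in Cy3, a narrow band on all 6 arrays. The mean was 0.45 ± 0.053, or 1.37-fold (adjusted p = 0.000249), with probes at 0.44 and 0.46. Il18rap, the accessory chain of the IL-18 receptor, was at 0.30, 0.0056 and 0.18 with treated RNA in Cy5 and at 0.23, 0.53 and 0.30 with it in Cy3. Averaged over its probes, all values were above 0, the Cy5 array of set 2 only just, and the mean was 0.26 ± 0.016 (adjusted p = 0.00298). Its probes were at 0.20 and 0.31, each called in the fit of single probes (adjusted p = 0.0135 and 0.00155). The first was at -0.23 on the Cy5 array of set 2. The call ended on the Cy5 arrays alone (0.16, adjusted p = 0.219) and with a fixed replicate block (adjusted p = 0.107).

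The signalling IL-1 receptor Il1r1 was at -0.038 ± 0.11 (95% interval -0.16 to 0.087), and Il1r2, a decoy for IL-1, at -0.013 ± 0.061 (95% interval -0.12 to 0.093). Il1rl2, the IL-36 receptor gene, was at -0.049 ± 0.17 (95% interval -0.20 to 0.11), and Il18r1, the chain that binds IL-18, at -0.0076 ± 0.055 (95% interval -0.11 to 0.097). Their adjusted p lay between 0.644 and 0.924, and no interval reached a change as large as that of Il1rap. These are intervals of set means, in which opposite array deviations cancel, so they cannot exclude such a change. Single arrays of Il1rl2 ran from -0.42 to 0.33. The probes differed in sign for Il1r1 (0.046 and -0.12), Il1r2 (0.00058 and -0.026) and Il18r1 (0.043 and -0.058). Il1r2, Il1r1, Il1rl2, Il1rl1, Il18r1 and Il18rap are neighbours in the GRCm38.p6 gene table, and of the 5 measured Il18rap alone was called.

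Common beta chain receptors, which serve IL-3, IL-5 and granulocyte-macrophage colony-stimulating factor (GM-CSF), had 1 rise among 5 tested genes, near the 14.0% of all features. Csf2ra, the chain that binds GM-CSF, was at 0.42, 0.25 and 0.49 with treated RNA in Cy5 and at 0.087, 0.33 and 0.30 with it in Cy3. All arrays lay above 0 and the mean was 0.31 ± 0.072 (adjusted p = 0.00199), a call that ended on the Cy3 arrays alone (0.24, adjusted p = 0.0761). A further Csf2ra probe, measured in 2 sets, averaged 0.23. Csf2rb, the shared signalling chain, was at 0.070 ± 0.022 (95% interval -0.028 to 0.17), and Csf2rb2, its mouse duplicate that serves IL-3 only, at 0.090 ± 0.067 (95% interval -0.017 to 0.20). These neighbouring genes are near-identical copies whose transcripts a probe may not tell apart. The chains that bind IL-3 (Il3ra, 0.0062 ± 0.11) and IL-5 (Il5ra, 0.11 ± 0.13) were not called either. In set 2 Il5ra was at -0.73 with treated RNA in Cy5 and 0.77 with it in Cy3, the widest gap between 2 arrays of a set among the 39 genes.

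Among receptors of the gp130, IL-12 and granulocyte colony-stimulating factor (G-CSF) group, 0 were called higher, 2 lower and 5 not called. Over all features 14.0% were called higher and 15.0% lower. An unadjusted p below 0.05 was found for 5 of the 7 genes and for 4366 of all 11364 features. Il6st encodes gp130, the signalling chain shared by IL-6, IL-11, leukaemia inhibitory factor and oncostatin M. It was at -0.21, -1.07 and -0.22 with treated RNA in Cy5 and at -0.22, 0.32 and -0.10 with it in Cy3. The arrays of set 2 were the lowest and the highest, and the mean was -0.25 ± 0.11 (adjusted p = 0.0103), or -0.19 without set 2 (adjusted p = 0.0366). On the Cy3 arrays alone Il6st was at -0.00085 (adjusted p = 0.997), on the Cy5 arrays alone at -0.50 (adjusted p = 0.139), and the call ended too with a random block (adjusted p = 0.0612), a fixed replicate block (adjusted p = 0.517) and no replicate block (adjusted p = 0.344).

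Il6ra encodes the chain that binds IL-6, and its 3 probes did not agree in sign. Averaged over them it was at -0.047, -0.0073 and 0.015 with treated RNA in Cy5 and at -0.35, -0.28 and -0.22 with it in Cy3, with a mean of -0.15 ± 0.047 (adjusted p = 0.0394). Single probes gave -0.38, -0.36 and 0.30, and the fit of single probes called the first 2 lower (adjusted p = 0.00115 and 0.00855) and the third higher (adjusted p = 0.00192). The third lay between 0.49 and 0.66 with treated RNA in Cy5 and between -0.029 and 0.10 with it in Cy3. Among the 20 genes of the group tested with several probes, Il6ra alone had probes called in opposite directions, as had 20 of the 1866 such genes of the whole table. Its averaged call also ended without set 1 (adjusted p = 0.221), without set 2 (adjusted p = 0.115) and without set 3 (adjusted p = 0.056). It ended as well on the Cy5 arrays alone (adjusted p = 0.889), with a fixed replicate block (adjusted p = 0.305), with no replicate block (adjusted p = 0.156), after scale normalization (adjusted p = 0.0503) and with exact zeros kept (adjusted p = 0.0555).

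**Figure D3:**
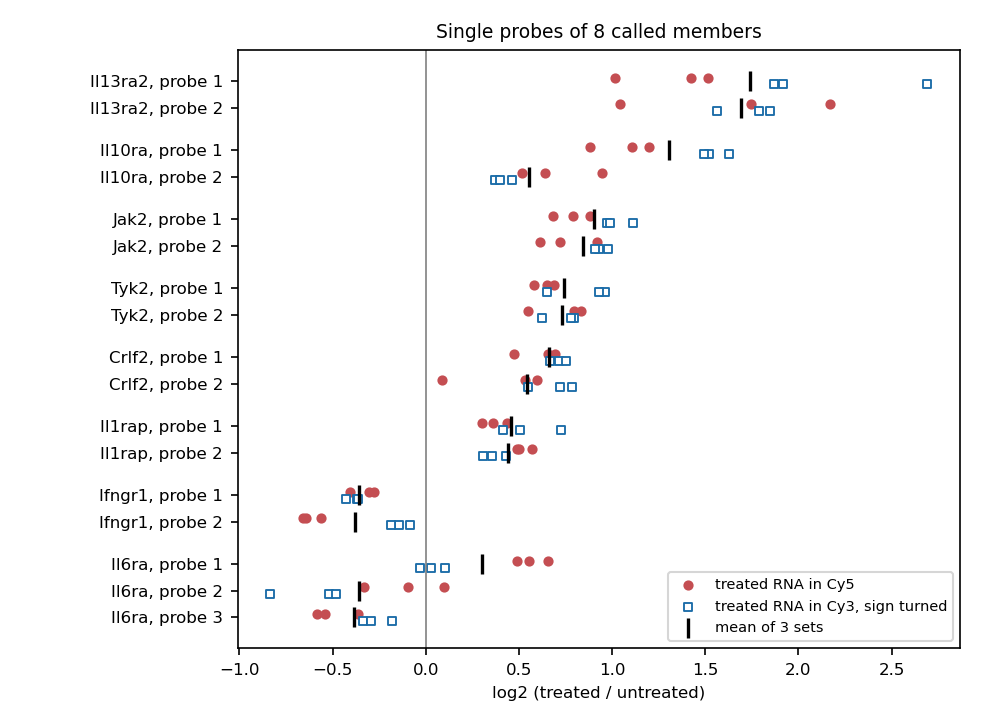
Log2 ratio of treated over untreated RNA (horizontal axis) on each array for the single probes of 8 called genes, with filled circles for treated RNA in Cy5, open squares for treated RNA in Cy3 (sign turned) and black bars for the mean of 3 sets. The Il6ra probes lie on both sides of 0, at 0.30, -0.36 and -0.38, whereas both Jak2 probes lie at 0.90 and 0.84.

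Csf3r, Il12rb1 and Il12rb2 were not called over 3 sets but passed when set 2 was left out. That fit rests on 2 sets, so the passes are no firmer than the missing calls over 3 sets. Csf3r, the receptor for G-CSF, was at -0.27, -0.37 and -0.34 with treated RNA in Cy5 and at -0.24, 0.32 and -0.23 with it in Cy3. Only the Cy3 array of set 2 lay above 0, and the mean was -0.19 ± 0.14 (adjusted p = 0.0519). Without set 2 Csf3r was at -0.27 and passed (adjusted p = 0.00188), as it did on the Cy5 arrays alone (-0.33, adjusted p = 0.0324) and with a random block (adjusted p = 0.0493). The random block took a negative correlation between the arrays of a set (-0.513), which narrows the error of the mean. Il12rb1, a chain shared by the IL-12 and IL-23 receptors, was at -0.15 ± 0.11 (adjusted p = 0.0715), from probes at -0.27 and -0.027 of which the first was called alone (adjusted p = 0.00257). The partner chain Il12rb2 was at 0.78, 0.16 and 0.15 with treated RNA in Cy5 and at -0.33, -0.059 and 0.22 with it in Cy3. Its orientations lay far apart in set 1, and the mean was 0.15 ± 0.092 (adjusted p = 0.0575). Without set 2 both passed, Il12rb1 at -0.20 (adjusted p = 0.0307) and Il12rb2 at 0.20 (adjusted p = 0.0224). Lifr, the leukaemia inhibitory factor receptor gene, was at 0.11 ± 0.10 (95% interval -0.012 to 0.23), and Osmr, the oncostatin M receptor gene, at -0.0054 ± 0.023 (95% interval -0.10 to 0.092). That Osmr mean joined probes at 0.11 and -0.13, and its arrays ran from -0.23 to 0.25. A further Osmr probe, with both orientations in 1 set only, was at -0.18 there and was left out. Il27ra, the IL-27 receptor gene, had a value in both orientations of 1 set for each of its probes, -0.18 in set 2 and -0.31 in set 1, and was not tested.

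In the IL-17 family, Il17ra, the chain common to its receptors, was at -0.039, -0.071 and -0.17 with treated RNA in Cy5 and at -0.21, -0.20 and -0.27 with it in Cy3. All 6 arrays lay below 0, and both probes gave much the same mean, -0.16 and -0.17. The mean of -0.16 ± 0.052 was called lower (adjusted p = 0.0297), but the call ended without set 1 (adjusted p = 0.0681), set 2 (adjusted p = 0.0634) or set 3 (adjusted p = 0.0957) and on the Cy5 arrays alone (-0.092, adjusted p = 0.347). With a fixed replicate block it ended too (adjusted p = 0.13). Il17rb, a chain of the IL-25 receptor, was at 0.086 ± 0.11 (95% interval -0.038 to 0.21) and was not called.

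Of the Janus kinases, 3 of 4 rose, against 14.0% of all features. Jak2, the kinase of the receptors for interferon-γ, GM-CSF and IL-3, was at 0.90, 0.65 and 0.76 with treated RNA in Cy5 and at 0.95, 1.04 and 0.95 with it in Cy3. Every array lay above 0.64, and the mean of 0.87 ± 0.044 corresponds to 1.83-fold (adjusted p = 7.73e-06), with probes at 0.90 and 0.84. Tyk2, which serves the receptors for type I interferon, IL-10 and IL-12, was at 0.74, 0.74 and 0.56 with treated RNA in Cy5 and at 0.88, 0.86 and 0.64 with it in Cy3. Set 3 was the lowest in both orientations, and the mean was 0.74 ± 0.12, or 1.67-fold (adjusted p = 6.1e-05), with probes at 0.74 and 0.73.

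Jak1, a kinase of interferon, gp130 and common gamma chain receptors, was at 0.19, 0.11 and 0.11 with treated RNA in Cy5 and at 0.21, 0.21 and 0.13 with it in Cy3. It was above 0 throughout but small, at 0.16 ± 0.039 or 1.12-fold (adjusted p = 0.0266). The call ended without set 1 (adjusted p = 0.15), without set 2 (adjusted p = 0.089), on either orientation alone (adjusted p = 0.181 and 0.0764), and with a fixed replicate block (adjusted p = 0.0888). Jak3, the kinase that binds the common gamma chain, was at 0.24, 0.17 and 0.077 with treated RNA in Cy5 and at -0.064, 0.21 and 0.032 with it in Cy3. Its mean of 0.11 ± 0.071 was not called (adjusted p = 0.123), and its 95% interval of 0.0024 to 0.22 lay below those of Jak2 (0.77 to 0.98) and Tyk2 (0.61 to 0.86).

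Against a change of 1.5-fold, which asks more than a difference from 0, 3 of the 39 genes passed as higher and 0 as lower, against 2.30% and 0.308% of all features. They were Il13ra2 (adjusted p = 8.53e-06), Il10ra (adjusted p = 0.00325) and Jak2 (adjusted p = 0.00557). In all 16 alternatives that fitted each gene as the mean of its probes, Il13ra2, Il10ra and Jak2 kept their call, with means between 1.49 and 1.95 for Il13ra2, 0.88 and 0.98 for Il10ra, and 0.77 and 0.98 for Jak2. The stricter threshold, robust variances and the test against 1.5-fold reuse the same set means, so the 16 are not separate checks.

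The orientations were set against each other because a dye effect cancels in the set means only if it is the same on both arrays of a set. As deposited, Cy5 over Cy3 averaged over a set differed from 0 at an adjusted p below 0.05 for 0 of the 39 genes and 0 of all features. At an unadjusted p below 0.05 these were 5 genes and 2630 features. Fitted over 6 arrays without a replicate block, 0 of the 39 genes and 554 features were called. The median absolute size of that dye term over all probes was 0.094 in set 1, 0.15 in set 2 and 0.075 in set 3. In set 2 it reached -0.75 for Il5ra, -0.70 for Il6st, -0.62 for Il15ra and -0.55 for Il13ra2. Whether it bears on the calls of those genes beyond the values given above was not tested.

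**Figure D4:**
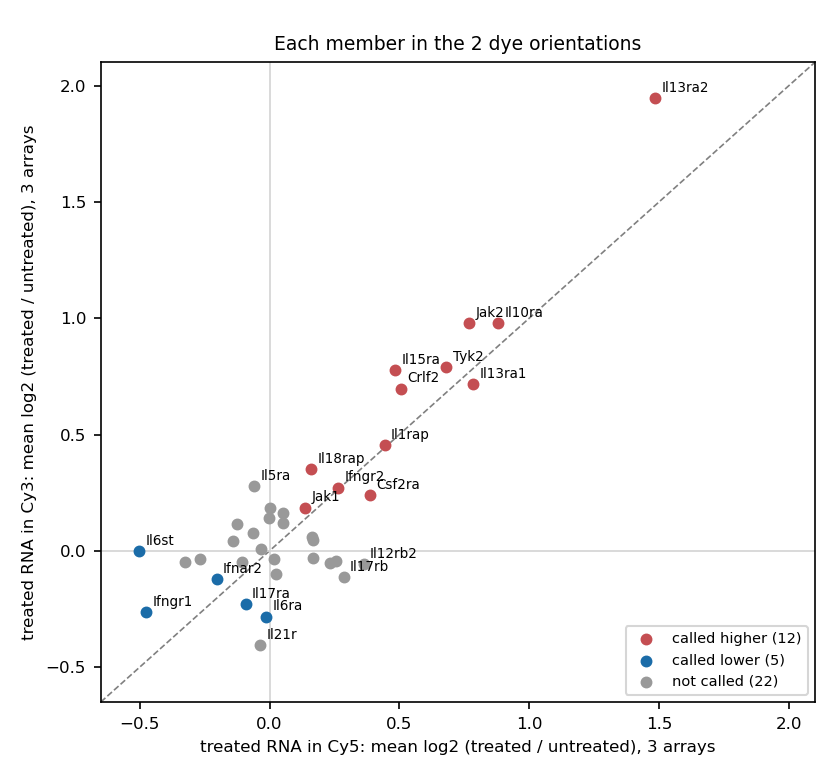
Mean log2 ratio of treated over untreated RNA over the 3 arrays with treated RNA in Cy5 (horizontal axis) and over the 3 with treated RNA in Cy3 (vertical axis, sign turned) for each of the 39 genes, coloured by call. The dashed line marks equal values, and Il6st, at -0.50 and -0.00085, lies far from it, whereas Il1rap, at 0.44 and 0.46, lies on it.

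The ligands of these receptors were set beside them, chosen as the textbook cytokines of each chain and paired after values were seen. Of 33 ligand genes tested, 14 rose and 0 fell (17 had an unadjusted p below 0.05), with a median change of 0.12. Over all features 14.0% were called higher and 15.0% lower, and 4366 of 11364 had an unadjusted p below 0.05. Il1b, at 4.17 ± 0.055, went with Il1rap at 0.45 and Il1r1 at -0.038. Ifnb1, the gene of interferon-β, was at 3.94 ± 0.65 beside Ifnar1 at -0.077 and Ifnar2 at -0.16. Csf3, encoding G-CSF, was at 3.40 ± 0.35, and its receptor gene Csf3r at -0.19. Thus the genes of the 3 ligands that rose most had receptor chains that changed by less than 1.5-fold. Il1rn and Il1a, ligands of Il1r1 as well, each rose by 3.16. Il6 rose by 2.81 ± 0.46, while Il6ra (-0.15) and Il6st (-0.25) were called lower, in calls that several alternatives ended. Il10 rose by 1.18 ± 0.31 and Il10ra by 0.93, Il15 by 1.06 ± 0.34 and Il15ra by 0.63, and Il13 by 0.50 ± 0.078, less than Il13ra1 (0.75) and Il13ra2 (1.72). Tslp was at 0.12 ± 0.030 and not called (adjusted p = 0.0653), while Crlf2 was at 0.60. Ifng was at 0.023 ± 0.058 and not called (adjusted p = 0.762), although both chains of its receptor were.

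**Figure D5:**
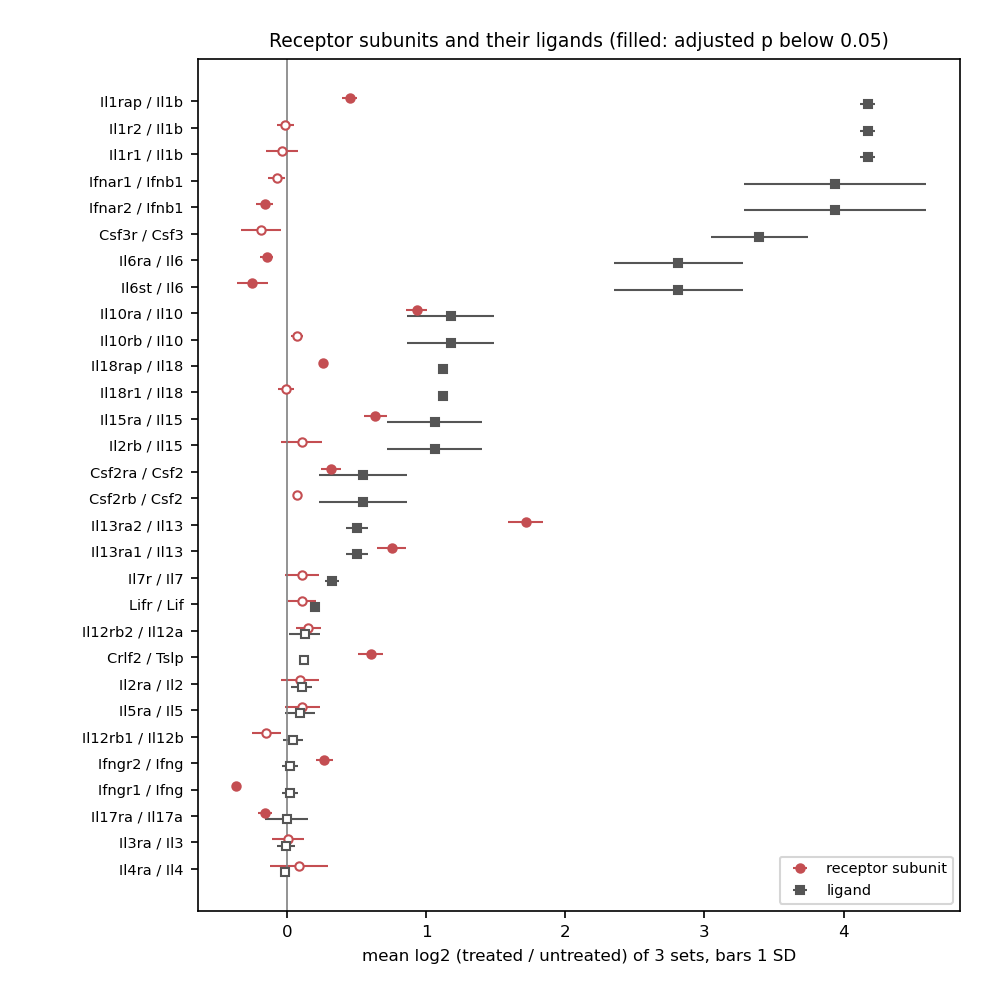
Mean log2 ratio of treated over untreated RNA over 3 sets (horizontal axis, bars 1 SD) of receptor subunits (circles) and of a ligand of each (squares), 1 pair per row, in order of the ligand's change. Filled symbols have an adjusted p below 0.05. The ligands Il1a and Il1rn are not drawn. At the top the ligand Il1b lies at 4.17 and its receptor chain Il1r1 at -0.038, while for Il13ra2 the receptor (1.72) lies right of the ligand Il13 (0.50).

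Downstream of the kinases, 1 of 4 tested STAT genes rose and 0 fell, while 14.0% of all features were called higher and 15.0% lower. Of the 4, 2 had an unadjusted p below 0.05, as had 4366 of all 11364 features. The one that rose was Stat3, the factor of the IL-6 and IL-10 receptors, at 0.89 ± 0.075 (adjusted p = 1.1e-05). Of the SOCS genes, whose products shut off JAK signalling, 3 of 6 rose and 0 fell. They were Socs1 (1.25 ± 0.20), an inhibitor of JAKs, Cish (0.26 ± 0.16) and Socs3 (0.21 ± 0.047), which acts on gp130. Of these Socs1 alone lay above 0 on all 6 arrays: Cish was below 0 on 1, and Socs3 was at -0.031 over the arrays with treated RNA in Cy5 and 0.45 over those with it in Cy3. Among 16 other regulators of the pathway, 5 rose and 1 fell. The largest rises were those of Nmi (1.28 ± 0.13), an interferon-induced partner of STAT proteins, Sh2b3 (0.37 ± 0.043), an adaptor that restrains Jak2 signalling, and the phosphatase gene Ptpn11 (0.25 ± 0.095). Pias3, which encodes an inhibitor of Stat3, fell to -0.24 ± 0.19 (adjusted p = 0.0449). Ptpn11 and Pias3 each had 1 array on the other side of 0.

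For the receptors that signal without JAKs, 3 of 7 tested adaptor genes rose and 1 fell, against 14.0% and 15.0% of all features. Myd88, the adaptor of IL-1 and Toll-like receptors, was at 0.72 ± 0.068, Tollip, a restraint on the same pathway, at 0.22 ± 0.099, and Map3k7, the kinase TAK1, at 0.19 ± 0.010. Map3k7 was at 0.017 over the arrays with treated RNA in Cy5 and 0.36 over those with it in Cy3. Its partner Tab1 fell to -0.19 ± 0.045 (adjusted p = 0.0144). Of 10 cytokine receptors and soluble binders outside the list, 2 rose and 2 fell, near the 14.0% and 15.0% of all features. The rises were Crlf3 (0.32 ± 0.11) and the IL-18 trap Il18bp (0.28 ± 0.079). The falls were the receptor for macrophage colony-stimulating factor Csf1r (-0.30 ± 0.067) and Sigirr (-0.38 ± 0.089). Sigirr, an inhibitory relative of the IL-1 receptor, lay above 0 on 1 array.

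Markers of cell types were read the same way, as ratios that give no level. Over all features 14.0% were called higher and 15.0% lower. Of 9 macrophage markers tested 5 rose and 1 fell. Cd68 (0.090 ± 0.047), Cd14 (0.073 ± 0.071) and Cd163 (0.024 ± 0.075) were not called. The rises included Fcgr1 (1.14 ± 0.13), an Fc receptor, Adgre1 (1.10 ± 0.13), a surface antigen of mouse macrophages, and Mpeg1 (1.08 ± 0.13), a pore-forming protein, and the fall was that of Csf1r. Among 10 markers of T and natural killer cells, which carry many of the same receptors, 1 rose (Cd4, 0.23 ± 0.12) and the range was -0.059 to 0.23. Of 5 B cell markers 0 rose and 0 fell, 0 of them with an unadjusted p below 0.05 in limma, and of 11 granulocyte and mast cell markers 1 rose (Elane, 0.29 ± 0.13). Their part in the receptor changes was not tested.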

How the data were processed

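The deposited values are log2 ratios of the 2 dye channels, 1 per probe and array, and the authors' steps to make them (scanner, background correction, normalization, genome build) are not given in the sources used here. Per the labels, treated and untreated total RNA shared each of 6 arrays. Deposited medians were 0 on every array, and between 14195 and 15027 of 16281 probes on an array were not listed at 0. Precision is limited by the number of arrays. Arrays of opposite dye orientation correlated at -0.76 to -0.374 over the 13415 probes with all 6 values, and the sign was turned on those that held treated RNA in Cy3. Probe names came from the platform annotation, in which 13738 probes had 1 symbol, 52 several and 2491 none listed, and 13694 matched GRCm38.p6 by Entrez ID. Il36a was read under that table's symbol Il1f6. Probes of 1 gene were averaged, giving 11364 features.

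The 2 arrays of a set were averaged as a dye swap of 1 RNA pair, which the labels do not state, and the mean of 3 sets was tested for a difference from 0 by limma 3.58.1 in R 4.3.3 (lmFit, eBayes, two-sided, Benjamini-Hochberg over all features, threshold 0.05). Intervals are limma's at 95%. Deviations of same-numbered arrays from their orientation's mean correlated at -0.484, -0.512 and -0.0203 in sets 1 to 3 after sign-turning (0.491, 0.523 and 0.0329 as deposited), so arrays of sets 1 and 2 shared a dye-like deviation. The test was checked on simulated data. All genes of the group are named, those called with every array's value, pathway lists by counts and up to 3 called genes, and promoters for the largest called changes. The pair of interferon-γ receptor promoters and the ligand pairs were picked after values were seen. Members and lists were chosen with earlier results of these data known. Alternatives covered normalization, the set as no, random or fixed block, each orientation, each set left out, missing values, exact zeros, single probes, robust variances and thresholds. The requirement of 1 sign on all 6 arrays was added after the data were seen.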

Additional observations from a re-analysis of the deposited data

How the results depend on the processing

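The count of receptor and kinase genes called higher, 12, became 3 in a test against a 1.5-fold change. It was 9 with a fixed replicate block, 8 with treated RNA in Cy5 alone, 10 with it in Cy3 alone, 13 with single probes and 11 to 12 elsewhere, sets left out included. The count called lower, 5, was less steady: 1 with a fixed replicate block, 2 with no replicate block, 2 with treated RNA in Cy5 alone, 1 at an adjusted p below 0.01, 0 against a 1.5-fold change and 2 when 1 sign on all 6 arrays was required. It was 2 to 5 when 1 set was left out, lowest without set 1. With a random block it was 5. That fit took a correlation of -0.513 between the arrays of a set, which narrows the error of their mean. It called more features than the main fit, 1779 higher and 1919 lower, so its count of 5 is no firmer. Over all features, 1586 higher and 1708 lower became 904 and 848 with a fixed replicate block, 931 and 894 with treated RNA in Cy5 alone, and 261 and 35 against a 1.5-fold change, where 88.2% of the calls were higher. Lower calls were 1079 with treated RNA in Cy3 alone and 1063 at an adjusted p below 0.01. Leaving out 1 set gave 1271 to 1479 higher and 1347 to 1464 lower. The dye effect was called for 0 of the 39 genes in each version, leave-one-out included (0 to 0). In the 16 alternatives that fitted each gene as the mean of its probes, no called gene changed sign, and 15 genes that were not called did so, in 24 cases without a call. With single probes, 1 probe of Il6ra, called lower as a gene, was called higher. No value is held on signal over background, so what dim spots limit is unknown, and the cause of these shifts was not tested. No result met the rules for a closer look, since groups of 3 arrays are not tested for outliers.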
